A study of Mus musculus with 8 samples.

Results

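The genes of cellular zinc handling examined here were 10 in number: 4 zinc exporters or vesicle loaders of the ZnT family (Slc30a1, Slc30a2, Slc30a5, Slc30a7), 4 zinc importers of the ZIP family (Slc39a4, Slc39a5, Slc39a7, Slc39a14) and the metallothioneins Mt1 and Mt2. They were chosen by name, as the rows whose Ensembl identifiers carry these symbols in GENCODE, and make up 10 of the 55414 gene rows of the table. RNA had been sequenced from 8 libraries of Paneth cells sorted by FACS from mouse small intestine. The TG group held 4 libraries from DT TG mice, which express diphtheria toxin in their Paneth cells. The 4 WT libraries came from wild type animals. The study's title places the experiment after depletion of (mature) Paneth cells. Neither group is described as having received a further agent. The promoter that drives the toxin, the number of transgenic lines, the age of the mice and the sex of each were not stated in the labels or methods read here. The study's methods say that its datasets include animals of both sexes. TG libraries represent the Paneth cells that could still be sorted from these mice.

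Zinc enters the cytosol through ZIP proteins and leaves it, towards the outside of the cell or into vesicles, through ZnT proteins. Metallothioneins are small cysteine-rich proteins that bind zinc and copper in the cytosol. The transcription factor MTF-1 senses free zinc and binds metal response elements in the promoters of Mt1, Mt2 and Slc30a1. Paneth cells are known for zinc in their secretory granules, where the metal accompanies antimicrobial peptides and zinc enzymes such as matrilysin.

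The promoters of 3 genes are shown because these are the best known targets of MTF-1. They are RefSeq sequences on GRCm38.p6, and each gives the 250 bases ahead of the annotated start, followed for Mt1 and Mt2 by the 30 bases after it. Capitals mark each match to the core of the metal response element, searched as TGCACNC and TGCGCNC on both strands, so that a match on the other strand reads GNGTGCA or GNGCGCA. All 3 genes lie on the plus strand.
Mt1, chr8:94178839-94179088, before the start: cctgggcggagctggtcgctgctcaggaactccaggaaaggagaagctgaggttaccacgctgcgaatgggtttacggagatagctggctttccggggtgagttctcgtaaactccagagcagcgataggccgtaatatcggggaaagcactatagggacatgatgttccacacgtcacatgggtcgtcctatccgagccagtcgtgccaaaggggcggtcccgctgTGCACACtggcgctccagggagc
Mt1, chr8:94179089-94179118, after the start: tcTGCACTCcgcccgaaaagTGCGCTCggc
Mt2, chr8:94172368-94172617, before the start: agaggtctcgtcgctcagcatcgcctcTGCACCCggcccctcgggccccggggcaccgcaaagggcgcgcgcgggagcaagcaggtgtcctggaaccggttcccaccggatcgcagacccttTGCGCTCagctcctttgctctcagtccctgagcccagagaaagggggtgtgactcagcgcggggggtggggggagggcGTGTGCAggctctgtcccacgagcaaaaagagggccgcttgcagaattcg
Mt2, chr8:94172618-94172647, after the start: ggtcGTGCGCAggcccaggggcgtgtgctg
Slc30a1, chr1:191906531-191906780, before the start: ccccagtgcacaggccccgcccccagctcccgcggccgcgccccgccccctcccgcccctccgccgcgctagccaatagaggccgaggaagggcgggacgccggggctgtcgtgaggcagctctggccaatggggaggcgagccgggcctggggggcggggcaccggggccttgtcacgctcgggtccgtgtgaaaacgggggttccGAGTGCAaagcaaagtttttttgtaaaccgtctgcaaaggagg

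In the window of 300 bases that was searched, 250 before the start and 50 after it, the Mt1 promoter held 3 matches, beginning 23 bases before the start and at bases 3 and 21 after it. The Mt2 promoter held 4, beginning 223, 128 and 50 bases before the start and at base 5 after it. Slc30a1 held 2, one 43 bases before the start and one at base 31 after it. Of 32851 promoters searched in the same way, 25.7% held at least 1 match, 7.11% at least 2, 1.97% at least 3 and 0.517% at least 4. Among the other genes, Slc30a2 held 2 matches, Slc30a5 held 1, and Slc30a7 and Slc39a7 held 0. Slc39a5 has a pair of listed starts, of which one held 1 match and the other 0. The promoter table matched 8 of the 10 genes, without Slc39a4 and Slc39a14. A match is a run of letters and not a measured binding site.

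Library totals were 13107397 to 16218434 counts for TG and 13601510 to 15018711 counts for WT. Markers of Paneth cells dominated every library, with a summed level of 371598 to 456066 normalised CPM, the counts scaled to a common library size, in TG and 352687 to 531876 in WT over 10 genes, among them Lyz1 and Defa24. Y-linked genes, 4 of which were checked, gave 897 to 1564 counts in replicates 3 and 4 and 0 in replicates 1 and 2, alike in TG and WT, so each group held 2 libraries of each kind. The study's text describes its Paneth cell samples as taken from individual mice, and the labels number the libraries without naming an animal. In bulk RNA, fewer cells of a type and less RNA per cell cannot be told apart.

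All 10 zinc genes passed the filter on low counts and were tested. In TG, 3 were called higher (Slc30a1, Slc39a5 and Mt1) and 3 were called lower (Slc30a5, Slc30a7 and Slc39a4) by edgeR's quasi-likelihood test at an adjusted p of 0.05. Of all 11929 genes tested, 8.26% were called higher and 9.65% lower. The normalised CPM of all TG libraries lay above those of all WT libraries for 2 of the 10 genes, against 10% of genes tested, and below them for 3, against 12%. The median log2 fold change of the 10 genes, TG over WT, was 0.16, beside 0.01 over all genes tested. With library totals in place of normalisation factors these medians were 0.28 and 0.12. Calls went in both directions within the exporters and within the importers.

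**Figure D1:**
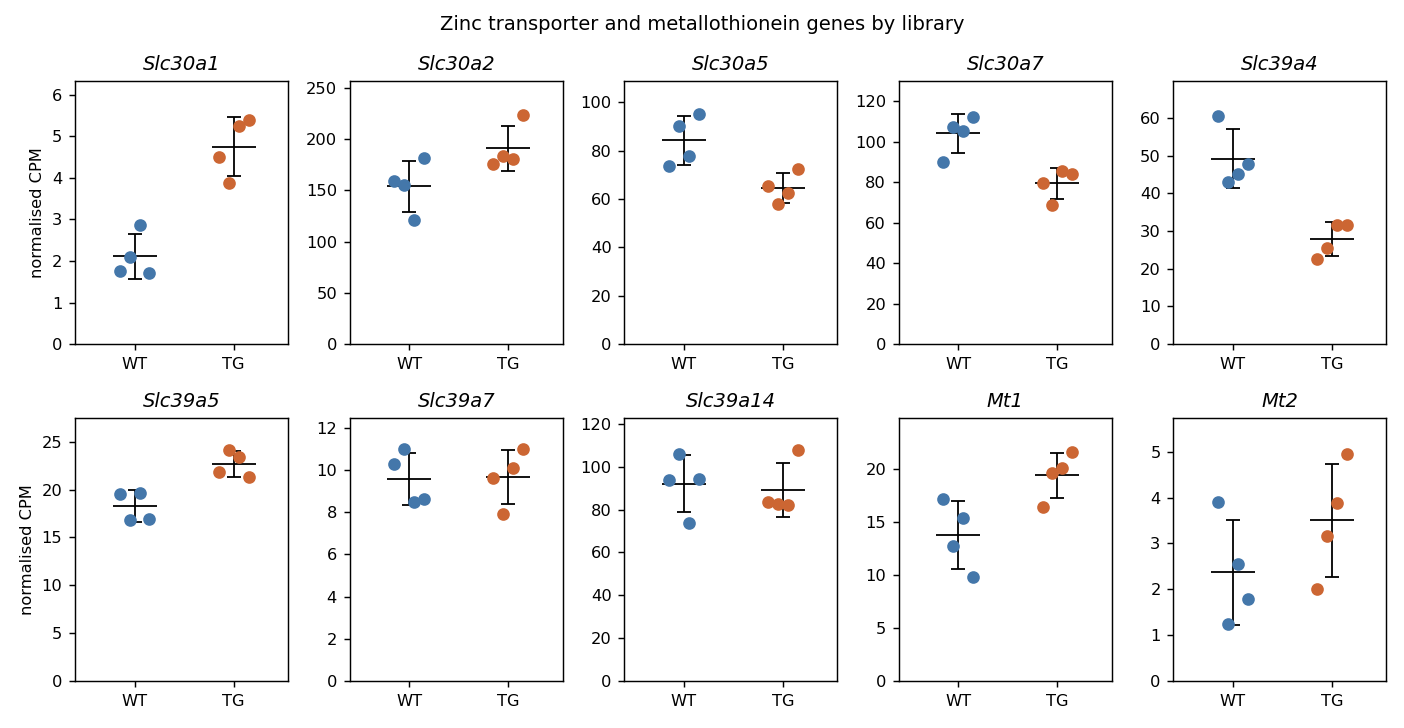
Normalised CPM of the 10 zinc genes in each library, with WT in blue and TG in orange. Horizontal lines are group means and bars are 1 SD (n = 4 each). The groups are apart for Slc30a1 and Slc39a5, with TG above WT, and for Slc30a5, Slc30a7 and Slc39a4, with TG below WT, and they overlap for the other 5.

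Slc30a1 encodes ZnT1, the zinc exporter of the plasma membrane. The gene (ENSMUSG00000037434) lies on chromosome 1, from 191638808 to 191645361 on the plus strand of GRCm39. Its levels in TG replicates 1 to 4 were 4.50, 3.87, 5.24 and 5.39 normalised CPM, and those in WT were 1.76, 2.09, 2.87 and 1.71. Every TG library was above every WT library. The ratio of TG to WT was 2.24, a log2 fold change of 1.16 ± 0.22 (SE, n = 4 each) with an edgeR adjusted p of 0.0038. This was the largest change among the 10 genes. It rested on 22 to 93 counts per library, a depth of which only Mt2 had less. The log2 fold change was 1.11 between libraries that lacked Y-linked counts and 1.21 between those that had them. With 2 libraries a group, neither passed the threshold (adjusted p = 0.0539 and 0.0819).

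Slc30a2 encodes ZnT2, a vesicular transporter that loads zinc into secretory granules, and was the most abundant of the set. It lies on chromosome 4, from 134070234 to 134081795 on the plus strand. Levels were 176, 184, 181 and 224 normalised CPM in TG and 159, 155, 121 and 182 in WT. WT replicate 4 lay within the TG range, and the other WT libraries lay below it. The log2 fold change of 0.31 ± 0.12 had an adjusted p of 0.0846 and was not called. It was called in 4 of the 19 alternative settings, among them library totals in place of normalisation factors (0.43, adjusted p = 0.0194), no filter on low counts (adjusted p = 0.0258) and the fit without WT replicate 4 (0.40, adjusted p = 0.0476). Within the libraries without and with Y-linked counts it was 0.20 and 0.42. Exons of Extl1, on the opposite strand, cover 40.2% of the exon bases of Slc30a2, and Extl1 itself had 94 to 213 counts per library against 1815 to 3211 for Slc30a2.

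Slc30a5 and Slc30a7 encode ZnT5 and ZnT7, which carry zinc into the early secretory pathway, where it is taken up by enzymes such as alkaline phosphatases. Slc30a5 lies on chromosome 13, from 100936795 to 100970006 on the minus strand, and Slc30a7 on chromosome 3, from 115732621 to 115801060 on the minus strand. Slc30a5 was at 65.4, 57.9, 62.3 and 72.3 normalised CPM in TG and at 73.5, 90.1, 77.8 and 95.2 in WT. Slc30a7 was at 79.8, 68.5, 85.4 and 83.9 in TG and at 89.7, 107, 105 and 112 in WT. For both genes every TG library was below every WT library, with a narrow gap between the highest TG and the lowest WT library. The fold changes were of the same size, with a log2 value of -0.38 ± 0.10 for Slc30a5 (edgeR adjusted p = 0.0184) and -0.38 ± 0.10 for Slc30a7 (adjusted p = 0.0158).

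The 2 calls depended on single libraries. Slc30a5 was not called without TG replicate 1 (-0.39, adjusted p = 0.0592), TG replicate 2 (-0.34, adjusted p = 0.0712) or WT replicate 4 (-0.32, adjusted p = 0.0588). Slc30a7 was not called without TG replicate 1 (-0.38, adjusted p = 0.0554) or TG replicate 2 (-0.32, adjusted p = 0.0612). Neither was called on library totals alone, which gave -0.28 for both genes. Within the libraries without Y-linked counts both were at -0.41, and within those with them Slc30a5 was at -0.36 and Slc30a7 at -0.35. Exons of Dph5, on the opposite strand, cover 15.5% of the exon bases of Slc30a7, and Dph5 had 79 to 112 counts per library.

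Slc39a4 encodes ZIP4, the importer of dietary zinc at the apical membrane of the intestinal epithelium. It lies on chromosome 15, from 76496580 to 76504172 on the minus strand. Its levels were 22.7, 25.4, 31.7 and 31.5 normalised CPM in TG and 60.4, 42.9, 45.1 and 47.9 in WT. All TG libraries were below all WT libraries, and TG replicates 1 and 2 were lowest. The ratio of TG to WT was 0.569, a log2 fold change of -0.81 ± 0.13 (edgeR adjusted p = 0.00162). The call held in all 19 alternative settings, 8 of which each left out 1 library, with log2 fold changes from -1.10 to -0.55. Those extremes were the values within the libraries without Y-linked counts (-1.10, adjusted p = 0.00352) and with them (-0.55, adjusted p = 0.0401). The difference between these values, tested as an interaction in edgeR, was 0.54 (unadjusted p = 0.0268, adjusted p = 0.814). The non-coding Gm62519 and Gm62526, on the opposite strand, cover 12.0% and 12.7% of the exon bases of Slc39a4, and neither has a row of counts.

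Slc39a5 encodes ZIP5, which lies at the basolateral membrane of intestinal epithelial cells. The gene is on chromosome 10, from 128231799 to 128237121 on the minus strand. TG libraries had 21.8, 24.2, 23.4 and 21.3 normalised CPM and WT libraries had 19.6, 16.8, 19.7 and 16.9. The groups did not overlap, and the nearest libraries, TG replicate 4 and WT replicate 3, were close. The log2 fold change was 0.31 ± 0.10 (edgeR adjusted p = 0.0402). This call was near the threshold and was lost without TG replicates 1, 2 or 3 (adjusted p = 0.075, 0.122 and 0.0912) and without WT replicates 2 or 4 (adjusted p = 0.0807 and 0.105). The fold change in those settings stayed between 0.27 and 0.34. It was also not called on library totals (0.43, adjusted p = 0.0712) or without the filter on low counts (0.31, adjusted p = 0.0532). It was 0.34 within the libraries without Y-linked counts and 0.30 within those with them.

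The remaining importers, Slc39a7 (ZIP7, which releases zinc from the endoplasmic reticulum and Golgi) and Slc39a14 (ZIP14, which also carries manganese and iron), were not called. Slc39a7 lies on chromosome 17, from 34247243 to 34250656 on the minus strand, and was at 9.62, 7.94, 10.1 and 11 normalised CPM in TG and 10.3, 11, 8.49 and 8.62 in WT. Slc39a14 lies on chromosome 14, from 70540678 to 70588914 on the minus strand, and was at 83.4, 82.4, 82.3 and 108 in TG and 93.8, 106, 73.9 and 94.3 in WT. Both genes overlapped between the groups over most of their range. The log2 fold change was 0.01 ± 0.14 for Slc39a7 (edgeR adjusted p = 0.961) and -0.05 ± 0.12 for Slc39a14 (adjusted p = 0.807). In the libraries without Y-linked counts the values were -0.28 and -0.27, and in those with them 0.31 and 0.18, none of which was called. As an interaction, this difference had an unadjusted p of 0.043 for Slc39a7 and 0.0578 for Slc39a14, and adjusted values of 0.864 and 0.876. Of the exon bases of Slc39a7, 78.3% also belong to Gm20427, a non-coding gene model on the same strand with 0 to 5 counts per library, so the counts of Slc39a7 depend on how shared reads were assigned, which the labels do not give.

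Mt1 and Mt2 are neighbours on chromosome 8, from 94905710 to 94906955 and from 94898819 to 94900207, both on the plus strand of GRCm39. Mt1 was at 16.4, 19.6, 20.1 and 21.6 normalised CPM in TG and at 17.2, 12.7, 15.4 and 9.81 in WT. One pair of libraries overlapped, with WT replicate 1 above TG replicate 1, and the other 3 TG libraries were above all WT libraries. The log2 fold change of Mt1 was 0.50 ± 0.15 (edgeR adjusted p = 0.0361). The call was lost without TG replicates 2, 3 or 4 (adjusted p = 0.092, 0.0779 and 0.0832) and without WT replicates 2 or 4 (adjusted p = 0.0735 and 0.0879). Without WT replicate 4, which had the lowest Mt1 level, the log2 fold change was 0.36.

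Mt2 was the more weakly expressed metallothionein, with 18 to 69 counts per library. It was at 2.00, 3.16, 3.89 and 4.94 normalised CPM in TG and at 3.91, 1.25, 2.54 and 1.78 in WT. As for Mt1, replicate 1 was the lowest TG library and the highest WT library. The log2 fold change of 0.56 ± 0.34 was close to that of Mt1 in size but had a larger SE (edgeR adjusted p = 0.268). It moved to 0.90 without WT replicate 1, 0.35 without WT replicate 2 and 0.36 without TG replicate 4, and was not called in any of these. Between the libraries that lacked Y-linked counts, which include both replicates 1, the log2 fold change was 0.27 for Mt1 and 0.01 for Mt2. Within those with Y-linked counts it was 0.73 and 1.02. None of these values was called, with adjusted p from 0.0964 to 0.992. The non-coding Gm45774, on the opposite strand, covers 82.4% of the exon bases of Mt2 and had 0 to 3 counts per library. No stretch of 75 bases was shared between the transcripts of Mt1 and Mt2.

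**Figure D2:**
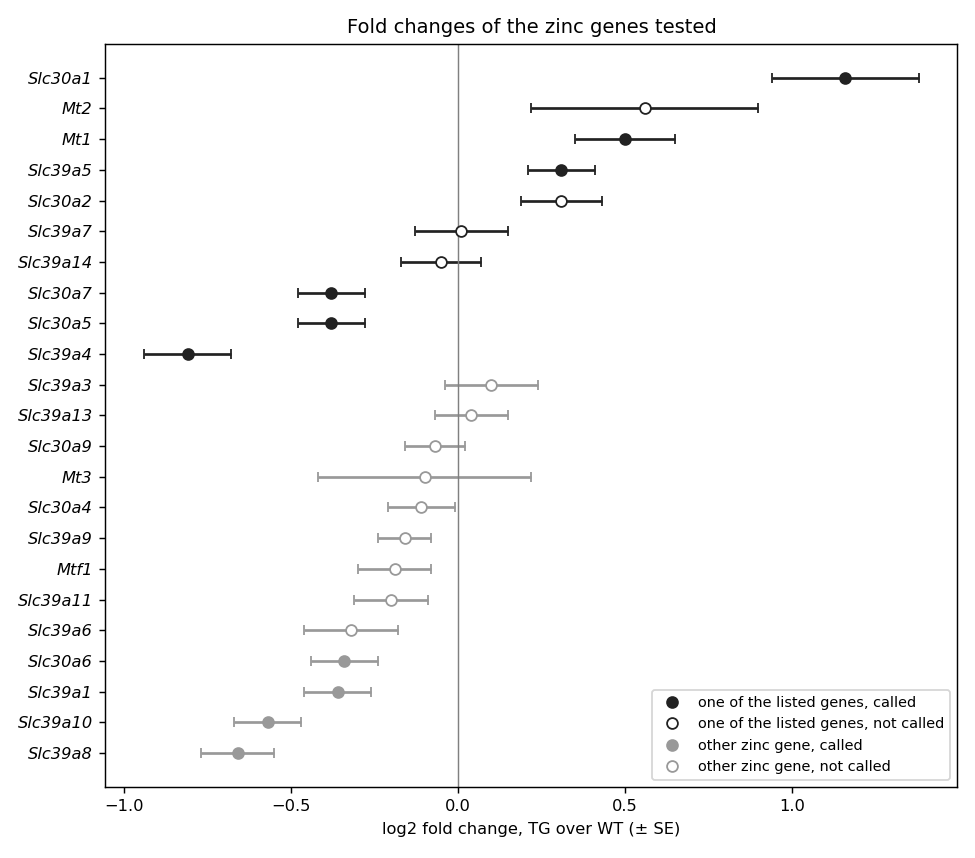
Log2 fold changes, TG over WT, of the 10 zinc genes (black) and of the 13 further zinc genes that were tested (grey), with bars of 1 SE. Filled points passed an edgeR adjusted p of 0.05. The 10 genes run from 1.16 for Slc30a1 to -0.81 for Slc39a4, and all 4 filled grey points lie below 0.

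Compared per length of exon sequence, the 10 genes differed widely in level. In WT, Slc30a2 was highest at 40.3 ± 5.05 TPM, the count per exon length scaled to a common total (SD, n = 4), followed by Slc39a4 at 11.9 ± 1.32 TPM, Mt1 at 11.4 ± 3.42 TPM and Slc39a5 at 8.35 ± 1.93 TPM. Slc39a14, Slc30a5 and Slc30a7 followed at 7.75, 7.67 and 7.16 TPM, and then Slc39a7 at 3.69 TPM, Mt2 at 2.48 TPM and Slc30a1 at 0.396 TPM. Neighbours in this order had overlapping libraries except between Slc30a2 and Slc39a4, between Slc30a7 and Slc39a7, and between Mt2 and Slc30a1. In TG the order began with Slc30a2 at 56.5 ± 4.02 TPM, Mt1 at 17.9 ± 2.29 TPM, Slc39a5 at 11.6 ± 1.53 TPM and Slc39a14 at 8.38 ± 0.668 TPM, and the ranges of these 4 genes did not overlap in sequence. Slc39a4, which followed Slc30a2 in WT, came after Slc39a14 in TG at 7.67 ± 1.40 TPM, where its libraries overlapped those of Slc39a14 and Slc30a5. Slc30a1 was again lowest, at 0.959 ± 0.145 TPM. With the longest transcript as the length, Slc30a2 was still first and Slc30a1 last in both groups, while the order between them changed and Slc39a14 came after Slc30a2 in WT at 14.8 TPM. The union of exons of Mt1, 1246 bases, filled the whole gene without a gap, and its longest transcript had 1085 bases. For Mt2 these lengths were 950 and 748 bases. If the sequenced transcripts were shorter, the TPM of both genes are too low. Their place in the order, and the gap below Slc30a2, are therefore uncertain.

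**Figure D3:**
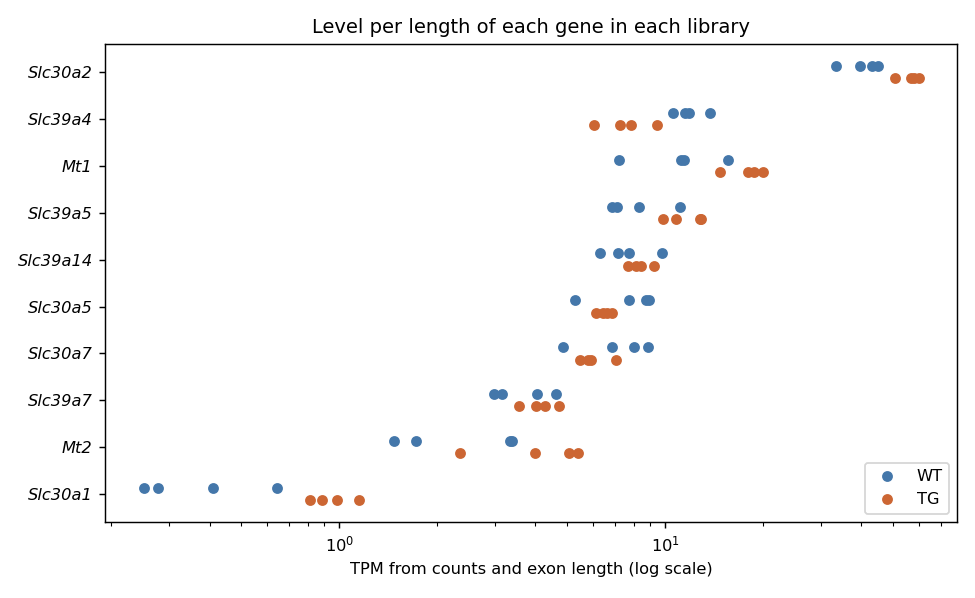
Level of each of the 10 genes in each library, in TPM computed from the counts and the length of all exons, on a log scale. Slc30a2 lies above all other genes in both groups, at 33.5 to 44.9 TPM in WT (blue) and 50.7 to 60.0 in TG (orange), and Slc30a1 lies below all others, at 0.252 to 0.642 in WT and 0.815 to 1.15 in TG. The lengths used may place Mt1 and Mt2 too low. These TPM carry no TMM factors. On normalised CPM the groups overlap for Slc30a2 and are apart for Slc30a5 and Slc30a7.

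The rest of the zinc transporter and metallothionein families, with the sensor gene Mtf1, made up 19 further genes, of which 13 were tested. Of these, 4 were called lower in TG and 0 higher, beside 9.65% and 8.26% of all genes tested. On library totals 2 of them were called lower, beside 263 of the 11929 genes tested. In the upward direction edgeR gave 0 genes at an unadjusted p of 0.05, and DESeq2 called 0 with 1 at that unadjusted level. The median log2 fold change of the 13 was -0.19, beside 0.01 over all genes tested. In 5 of the 13 every TG library was below every WT library, beside 12% of all genes tested, and in 0 above.

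Slc39a8 (ZIP8, an importer of zinc and manganese) was at 81.1, 73.0, 80.2 and 86.8 normalised CPM in TG and 154, 128, 100.2 and 125 in WT, with a log2 fold change of -0.66 ± 0.11 (edgeR adjusted p = 0.00231). Slc39a10 (ZIP10, a plasma membrane importer) was at 43.9, 36.5, 38.9 and 40.2 in TG and 65.5, 51.3, 56.8 and 62.9 in WT, with a value of -0.57 ± 0.10 (adjusted p = 0.00195). For both genes all TG libraries were below all WT libraries, and both were called in 18 of 19 alternative settings. Slc39a1 (ZIP1) was at 54.4, 52.6, 49.1 and 61.1 in TG and 83.4, 68.9, 64.4 and 61.6 in WT, a log2 fold change of -0.36 ± 0.10 (adjusted p = 0.0294). Slc30a6 (ZnT6), whose protein pairs with ZnT5 at the Golgi, was at 21.2, 24.2, 20.6 and 25.0 in TG and 31.1, 26.7, 28.0 and 29.1 in WT, a value of -0.34 ± 0.10 (adjusted p = 0.0273). These smaller changes were called in 13 and 11 of the 19 settings and were not called on library totals alone.

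Slc39a11 (ZIP11, an intracellular transporter) had the highest level per length of the further genes, at 27.5 ± 1.80 TPM in WT and 27.1 ± 1.59 TPM in TG. By the exon lengths used, only Slc30a2 among the 10 genes was higher in both groups. The log2 fold change of Slc39a11 on normalised CPM was -0.20 ± 0.11 (edgeR adjusted p = 0.202). Mtf1 was at 14.9 normalised CPM in TG and 17.0 in WT, with a log2 fold change of -0.19 ± 0.11 (adjusted p = 0.234). Transcripts of Slc30a8, Slc39a12 and Mt4 had 0 counts in every library, and Slc30a3, Slc30a10 and Slc39a2 were too low to be tested. Mt3 was tested and was not called, at -0.10 ± 0.32 (adjusted p = 0.859).

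Of 20 enzymes that bind zinc in the secretory pathway or at the cell surface, which ZnT proteins supply, 17 were tested, 6 were called higher and 4 lower, beside 8.26% and 9.65% of all genes tested, with a median log2 fold change of 0.19. On library totals 7 were higher and 1 lower, beside 787 and 263 of all 11929 genes tested. Alpi and Anpep are also among the enterocyte markers, and Mmp7 is among the Paneth markers, so these genes count in both lists. Among those that rose was Alpi, the intestinal alkaline phosphatase of the enterocyte brush border, at 3.31, 2.60, 6.37 and 6.68 normalised CPM in TG and 0.319, 0.487, 0.602 and 1.78 in WT (log2 fold change 2.56 ± 0.47, edgeR adjusted p = 0.00462). Every TG library was above every WT library. WT libraries held only 4, 7, 9 and 24 counts of Alpi, so it passed the filter on low counts through the TG group, where it was high. The largest decreases were in Mmp7, the matrilysin that processes alpha-defensins in Paneth cells, at 3771 to 4279 normalised CPM in TG and 4449 to 7452 in WT (-0.59 ± 0.15, adjusted p = 0.0179), and in Enpp1, a membrane pyrophosphatase, at 20.7 to 23.9 in TG and 25.7 to 35.1 in WT (-0.45 ± 0.10, adjusted p = 0.0102). The groups did not overlap for either of these. Neither was called within the libraries with or without Y-linked counts, Mmp7 was not called without TG replicate 2, and Enpp1 was not called on library totals. Over the 19 alternative settings the log2 fold change ran from -0.72 to -0.44 for Mmp7 and from -0.53 to -0.33 for Enpp1.

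Among 16 genes of iron and copper handling, 15 were tested, 1 was called higher and 2 lower, shares near those of all genes tested, with a median of -0.02. On library totals 1 was higher and 0 lower, beside 787 and 263 of all 11929 genes tested, with 2 lower at an unadjusted p of 0.05. DESeq2 called 1 higher and 3 lower, beside 1079 and 1322 of its 13729 genes tested. Atp7b, a copper-exporting ATPase, was at 30.6, 25.7, 23.0 and 26 normalised CPM in TG and 11.2, 7.37, 7.69 and 15.2 in WT, a log2 fold change of 1.35 ± 0.20 (edgeR adjusted p = 0.00176). Slc11a2 (DMT1, the apical iron importer) was lower by a log2 value of -0.53 ± 0.10 (adjusted p = 0.00394), and Slc31a1 (CTR1, the copper importer) by -0.39 ± 0.10 (adjusted p = 0.0162). Neither was called on library totals or within the libraries with Y-linked counts, and Slc31a1 was also not called without TG replicate 1 or TG replicate 2. Atp7b was called in 18 of the 19 alternative settings, and not within the libraries with Y-linked counts. Metallothioneins also respond to oxidative stress and to glucocorticoids, so genes of these responses were set beside them. Of 15 oxidative stress genes, all tested, 1 was called higher and 6 lower, beside 8.26% and 9.65% of all genes tested, with a median of -0.27 beside 0.01. On library totals 1 was higher and 1 lower, beside 787 and 263 of the 11929 genes tested, with a median of -0.15 beside 0.12. Catalase (Cat) was higher at 0.46 ± 0.12 (adjusted p = 0.0195), whereas Gpx2, the gastrointestinal glutathione peroxidase, was lower at -1.49 ± 0.18 (adjusted p = 0.000947) and Hmox1, heme oxygenase 1, at -0.95 ± 0.27 (adjusted p = 0.0274). Of 10 genes responsive to glucocorticoids, 9 were tested, 3 were called higher and 0 lower, beside 8.26% and 9.65% of all genes tested, with a median of 0.36 beside 0.01. On library totals 1 of them was higher, beside 787 of the 11929 genes tested. In the downward direction edgeR and DESeq2 both gave 0 genes, also at an unadjusted p of 0.05. The kinase gene Sgk1 was at 4.25, 6.75, 4.45 and 7.21 normalised CPM in TG and 1.44, 1.95, 2.47 and 3.35 in WT (1.29 ± 0.26, adjusted p = 0.00543), and the glucocorticoid receptor gene Nr3c1 had a log2 fold change of 0.43 ± 0.12 (adjusted p = 0.0239). Cat was called in 16 of the 19 alternative settings, with log2 fold changes from 0.20 to 0.74, and not without TG replicate 2, without WT replicate 1 or within the libraries with Y-linked counts. Sgk1 was called in 18, and not within the libraries with Y-linked counts. Hmox1 was called in 12, with values from -1.18 to -0.69, and not without TG replicates 1, 2 or 4 or WT replicate 1, on library totals or within either subset by Y-linked counts. Nr3c1 was called in 13, with values from 0.19 to 0.66, and not without TG replicates 1, 2 or 3 or WT replicate 1, on library totals or within the libraries with Y-linked counts.

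Markers of other cell types were measured in the same libraries, since Slc39a4, Slc39a5, Slc30a1 and the metallothioneins are also expressed by enterocytes. Of 11 enterocyte markers, all tested, 4 were called higher in TG and 0 lower by edgeR, beside 8.26% and 9.65% of all genes tested, with a median log2 fold change of 1.6 beside 0.01. Alpi, Apoa4, Fabp1, Lct and Rbp2 had 0 to 5 counts in their lowest WT library. They passed the filter on low counts through the TG group, where they were high, which tilted these calls and the median upwards. DESeq2 called 8 higher, beside 1079 of its 13729 genes tested, and limma voom 3, beside 1188 of 11929. All 3 tools gave 0 of the 11 markers as lower, also at an unadjusted p of 0.05. Their summed level was 495 to 667 normalised CPM in TG and 328 to 431 in WT. Most of this sum was Anpep, and without it, a step chosen after the values were seen, the other 10 summed to 121 to 263 in TG and 54.7 to 107 in WT. What part this difference had in the levels of the zinc genes was not tested. The libraries came after a FACS sort for Paneth cells, a step meant to remove other cell types.

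Paneth markers, 10 in number, had 0 called higher and 3 lower by edgeR (Mmp7, Ang4 and Mptx2), beside 8.26% and 9.65% of all genes tested, with a median of -0.37 beside 0.01. DESeq2 called 0 higher and 4 lower, beside 1079 and 1322 of its 13729 genes tested. Both tools gave 0 of these markers as higher at an unadjusted p of 0.05. Of the 8 goblet markers 0 were called, and of the 6 stem cell markers 1 was called higher (Axin2) and 1 lower (Smoc2). The enteroendocrine markers, with 4 of 8 tested, and the tuft markers, with 5 of 6 tested, had 0 calls in either direction. Of the 10 immune markers 1 was tested and not called, the list summed to 9.69 to 30.5 normalised CPM in TG and 12.4 to 19.3 in WT, and Cd3g and Adgre1 had 0 counts in every library. DESeq2 also called 0 genes of the goblet, enteroendocrine, tuft and immune lists. At an unadjusted p of 0.05 edgeR gave 1 and DESeq2 2 goblet markers as lower, and both gave 0 genes of the other 3 lists.

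**Figure D4:**
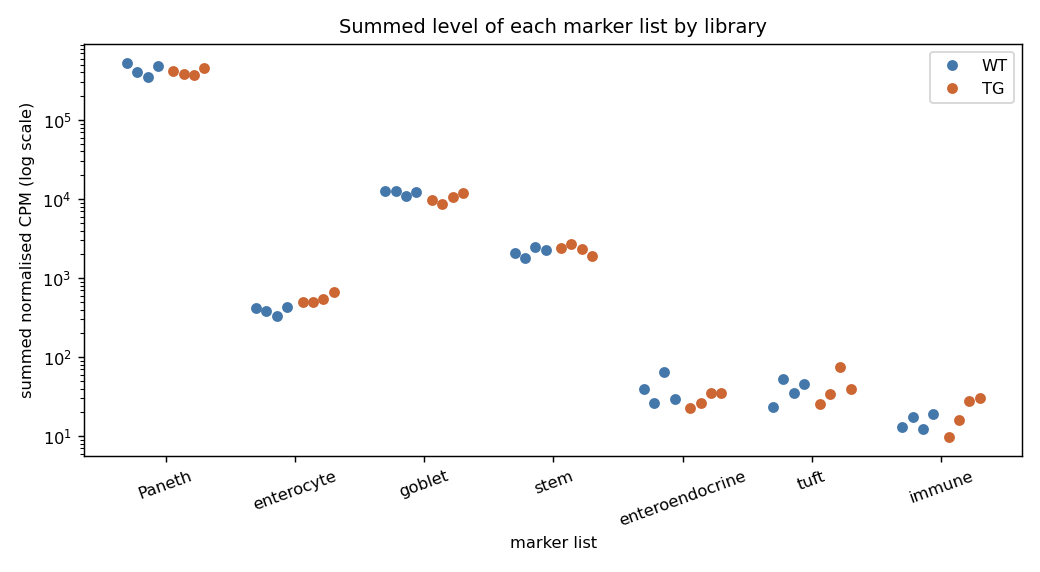
Summed normalised CPM of each list of cell type markers in each library, on a log scale, with WT in blue and TG in orange. The enterocyte sums of TG (495 to 667) lie above those of WT (328 to 431), while the sums of the other lists overlap between the groups, and the Paneth sums exceed all others.

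**Figure D5:**
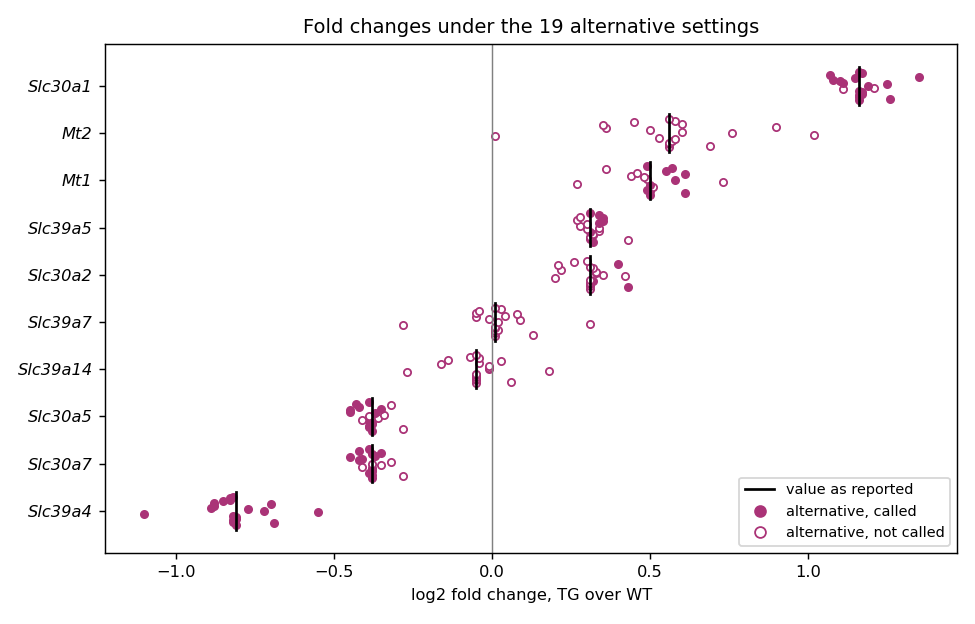
Log2 fold change, TG over WT, of the 10 zinc genes under 19 alternative settings, with filled points where the adjusted p of that setting was under 0.05 and a black line at the value as reported. Slc39a4 is filled in all 19 settings and Slc30a1 in 17, while Slc39a5 is filled in 9 and Mt1 in 11.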

How the data were processed

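RNA-seq of sorted mouse Paneth cells was compared between 4 TG and 4 WT libraries, grouped by the labels alone. RNA came from an aurum column kit and libraries from a TruSeq stranded poly(A) kit. The authors deposited 1 table of raw counts per Ensembl gene. The submitters' processing notes name mm39, STAR 2.7.0a, FastQC 0.12.0 and DESeq2. The counting tool, its strand setting and annotation, and how reads with several alignments were treated, are not given in the labels or methods read here. Genes that share exon bases with another gene model are therefore uncertain.

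The counts were tested with the quasi-likelihood method of edgeR 4.0.16 (R 4.3.3, robust), using TMM factors, edgeR's filter on low counts by group (11929 genes left) and Benjamini-Hochberg adjustment over all of them at 0.05. The group was the only term and all 8 libraries entered. Normalised CPM use the TMM-scaled library size. The SE is the size of the log2 fold change over the root of its F statistic. TPM were computed from the counts and the union of GENCODE M39 exons, without TMM factors. GENCODE M39 matched 54749 of 55414 identifiers. Sequences are from RefSeq on GRCm38.p6, and gene positions are on GRCm39. Library totals of 13107397 to 16218434 counts set the precision. Replicates of a group differed by more than sampling noise (chi-square per degree of freedom of at least 5.20).

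The genes and lists were chosen with earlier results of these data known. The text names the 10 genes, the called further zinc genes with the 3 highest per length, and up to 2 called genes per direction with the largest change in each further list. Values of 2 listed genes are not reported here. Alternatives were DESeq2 1.42.0, limma 3.58.1 voom, other size factors, library totals, other filters, a replicate block, a Y-linked covariate, subsets by Y-linked counts and each library left out. The edgeR script was checked on data with known changes before use.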

Additional observations from a re-analysis of the deposited data

Results flagged for a closer look

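Slc39a14 in TG replicate 4 was at 108 normalised CPM, far from the other 3 TG libraries at 82.3 to 83.4. The gap to the nearest of them was 0.957 of the range of the group, above Dixon's critical value for 4 samples. Of 54 groups of libraries examined in this way, over 27 named genes, 1 stood out, and chance gives about 2.7. Without TG replicate 4 the log2 fold change of Slc39a14 was -0.16, and it was not called.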

How the results depend on the processing

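Of the 3 genes called higher, 0 were called within the libraries without Y-linked counts and 0 within those with them, where edgeR gave 1 and 3 of the 10 genes as higher at an unadjusted p of 0.05 and 2 libraries a group limit the test. With 1 library left out, 1 to 3 of the 10 genes were called higher and 1 to 3 lower. Of the 3 called lower, 1 (Slc39a4) was called on library totals, 1 without Y-linked counts and 1 with them. Over all genes, the libraries without Y-linked counts gave 500 higher and 638 lower calls of 12061 tested. Those with Y-linked counts gave 113 and 103 of 12024. Library totals also changed the split over all genes, from 985 higher and 1151 lower to 787 and 263. Of the further zinc genes, 2 were called lower on library totals, 2 without and 1 with Y-linked counts, and 2 to 4 with 1 library left out. Without the filter on low counts 1 of them, Slc30a10, was called higher. It was chosen after its values were seen, with 5, 2, 8 and 4 counts in TG and 0, 0, 1 and 0 in WT.

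Signs changed for genes that were not called. Slc39a14 was at 0.06 on library totals, 0.18 with Y-linked counts and -0.16 to 0.03 with 1 library left out. Slc39a7 was at -0.28 without Y-linked counts and -0.05 to 0.09 with 1 library left out. Same-numbered libraries of the groups had correlations of 0.076, 0.067, 0.286 and 0.231, so the numbers were not taken as pairs. A replicate block gave 2 higher (Slc30a1 and Slc30a2) and 3 lower calls, with Slc39a5 and Mt1 at adjusted p of 0.0521 and 0.0519, and 4 further zinc genes lower. The cause of these changes was not tested, beyond the smaller number of libraries where some were left out.

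Depth limits Slc30a1 and Mt2 most, at 22 to 93 and 18 to 69 counts. Intervals and errors cover these libraries only.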
